A study of Mus musculus with 2 samples.

Results

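Short housekeeping noncoding RNAs are small structured transcripts that work as the RNA part of ribonucleoproteins: the Y RNAs, the RNase P and RNase MRP RNAs, 7SK RNA, telomerase RNA, the minor spliceosome RNA U12, the U3 RNA of ribosome assembly, vault RNA and 5S ribosomal RNA. The 10 RNAs described here, Rny1, Rny3, Rpph1, Rmrp, Rn7sk, Terc, Rnu12, Rnu3a, Vaultrc5 and n-R5s136, were taken by gene symbol from the probe sets whose platform annotation gives a single symbol. They hold 11 of 28944 probe sets and 10 of 19938 genes, since Rn7sk has a pair of probe sets and each other RNA has 1. The set is a class of RNAs that was chosen by the measured difference between these arrays, since earlier results had shown several of its members low in the HMGN1 virus sample. Their differences are therefore a description, with no test.

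The arrays measured total RNA of neural precursor cells from the forebrain of Jcl:ICR mouse embryos at stage E11.5. The cells were grown with FGF2 and EGF and infected with a control retrovirus or a retrovirus carrying HMGN1, a protein that binds nucleosomes. Per the labels, they were replated 3 days later and spent 1 day without either growth factor in both groups. There is 1 array per virus, so no value has a replicate, and virus, culture, RNA preparation and array cannot be told apart. In these bulk samples, fewer cells of a type and less RNA per cell cannot be told apart either.

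Most of these RNAs are made by RNA polymerase III, the enzyme that also makes transfer RNA, and their level is commonly tied to growth. Rny1, Rny3, Rpph1, Rmrp and Rn7sk have promoters that lie upstream of the start, with a distal octamer element and a TATA box. The 5S genes and vault RNA genes use elements inside the transcribed part. Terc, Rnu12 and Rnu3a are made by RNA polymerase II.

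Of the 10 RNAs, 9 read lower with the HMGN1 virus, as did 38.4% of 11325 detected genes. A gene counted as detected when its mean over both arrays reached an intensity of 85.9, the 95th percentile of 1035 probe sets of olfactory receptors, which brain precursor cells hardly use, and all 10 RNAs did so. Differences are HMGN1 virus minus control virus on the log2(intensity + 16) scale. Their median was -0.34 over the 10 RNAs and 0.027 over all detected genes. Without replicates, scatter was read within this pair of arrays, where probe sets that share a gene differed with an SD of 0.0893 (678 genes). The differences of all detected genes had a larger SD of 0.111, and those of 1027 olfactory receptor genes, mostly dim, one of 0.156. None of these covers variation between arrays or between cultures.

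At least 1.5-fold lower were 2 of the 10 RNAs, Rny1 and n-R5s136, against 0.0706% of detected genes. A log2 difference of -0.322 or lower was reached by 5, adding Vaultrc5, Rnu12 and Rnu3a, against 0.521%. These shares are printed as background only, since the RNAs were chosen with this contrast known. Terc lay just outside the smaller size at -0.320, and Vaultrc5 just outside the larger at 1.46-fold, both with the offset of 16. Without an offset Terc was 1.26-fold and Vaultrc5 1.54-fold lower, so each then passed that size. None of the 10 was higher by that smaller size, which 0.494% of detected genes were.

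**Figure D1:**
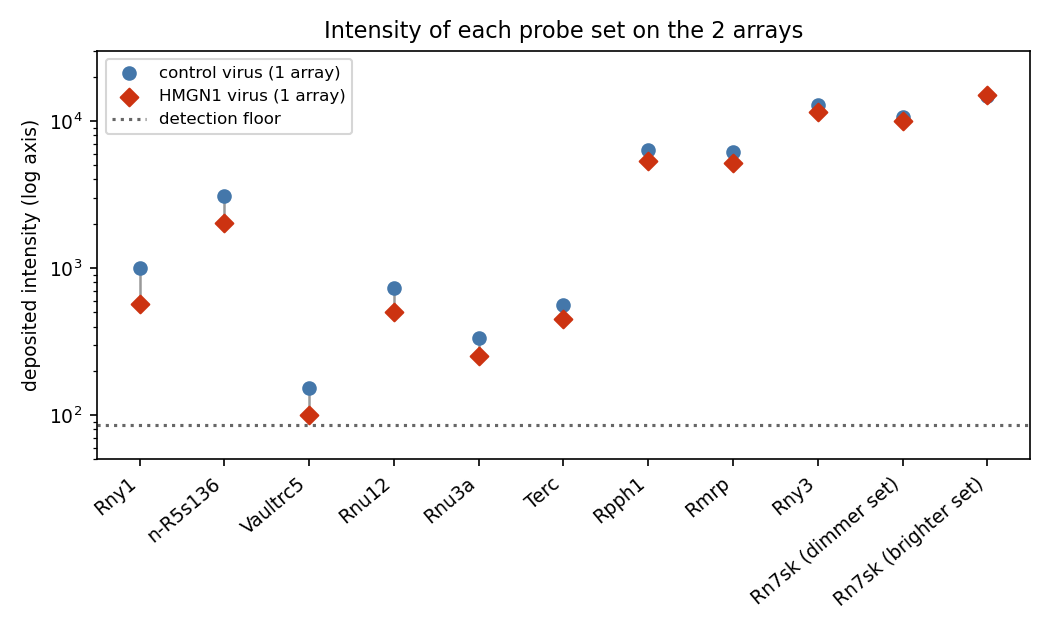
Deposited intensity (log axis) of the 11 probe sets on the control virus array (circles) and the HMGN1 virus array (diamonds), ordered from the lowest to the highest difference, with the detection floor of 85.9 as a dotted line. The diamond lies below the circle for 10 probe sets, from Rny1 at 1001 and 573 to the dimmer Rn7sk probe set at 10568 and 10025, and above it for the brighter Rn7sk probe set.

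The Y RNAs are small stem-loop RNAs bound by the Ro60 protein and, at their ends, by the La protein, and in vertebrates they have been tied to the start of DNA replication and to RNA quality control. Rny1 read 1001 on the control array and 573 on the HMGN1 array, 57.2% of the control intensity. Its difference of -0.79 was the second lowest (rank 2) of 11325 detected genes. Rny3 read 12911 and 11575, 89.7% of control, a difference of -0.16. The 2 Y RNAs are neighbours on 1 chromosome in the RefSeq table of assembly GRCm38.p6, yet their differences were 0.63 apart. This gap is 7.06 times the SD between probe sets, which is an SD of single probe sets and understates the spread of a gap. The nearest measured protein-coding gene beside them, Pdia4, an endoplasmic reticulum disulfide isomerase, read 766 and 769. The RNAs and this neighbour thus gave differences of -0.79, -0.16 and 0.0056.

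RNase P, whose RNA is Rpph1, trims the 5′ ends of transfer RNA precursors. RNase MRP, whose RNA is Rmrp, shares most protein subunits with it and cuts precursor ribosomal RNA. Rpph1 read 6338 and 5313, and Rmrp read 6193 and 5205, 83.8% and 84.0% of control. Their differences of -0.254 and -0.250 were 0.0039 apart, far less than the SD between probe sets. The RNAs of the related enzymes thus differed by nearly the same step between the arrays. The RNase P RNA-like genes Rprl1 and Rprl2 were lower too, at 257 and 218 (-0.22) and at 362 and 326 (-0.14). Their probes may also catch Rpph1 RNA, so they are no independent reading of it.

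Rpph1 and Rmrp each stand beside a protein-coding gene that points away from them. The RefSeq promoter table of GRCm38.p6, which gives 300 bases around a gene's start, matched 0 of the 10 RNAs and both of these neighbours, Parp2, a DNA damage sensor, and Ccdc107. The 2 windows are shown because they hold all or most of the stretch between each RNA gene and its neighbour. Capitals mark the octamer ATTTGCAT and the TATA letters TATAA on either strand, motifs that were picked after the windows were read.
Parp2 (chr14:50807666-50807965, plus strand): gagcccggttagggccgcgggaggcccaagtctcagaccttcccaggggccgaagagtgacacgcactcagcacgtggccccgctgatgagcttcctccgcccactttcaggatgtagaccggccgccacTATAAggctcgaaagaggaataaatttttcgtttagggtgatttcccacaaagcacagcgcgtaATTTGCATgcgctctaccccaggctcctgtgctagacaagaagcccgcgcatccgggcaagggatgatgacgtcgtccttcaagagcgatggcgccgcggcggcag
Ccdc107 (chr4:43493115-43493414, plus strand): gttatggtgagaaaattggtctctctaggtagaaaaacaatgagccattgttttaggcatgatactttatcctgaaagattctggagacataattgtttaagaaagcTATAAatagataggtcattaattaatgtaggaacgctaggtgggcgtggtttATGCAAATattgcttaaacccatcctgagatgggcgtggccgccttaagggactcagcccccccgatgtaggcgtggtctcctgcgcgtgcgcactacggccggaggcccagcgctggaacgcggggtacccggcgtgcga

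The first 106 bases of the Parp2 window are annotated as Rpph1 itself. Its TATAA starts 25 bases and its octamer 89 bases past that end of Rpph1. The Ccdc107 window begins after a gap of 55 bases from Rmrp and holds the octamer as its reverse complement, ATGCAAAT. There TATAA starts 163 bases and the octamer 215 bases past Rmrp. The 55 bases next to Rmrp were not searched, so a TATAA as near as the one beside Rpph1 could not be found. Of 32851 promoter windows of this length, 1.74% hold the octamer on either strand, 24.9% hold TATAA and 0.597% hold both. A match is a description of letters, not of a factor at work. Across these stretches, Parp2 read 277 and 306 (0.14), higher beside Rpph1 at -0.254. Ccdc107 read 141 and 132 (-0.084), lower like Rmrp at -0.250 but by less.

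7SK RNA holds the elongation kinase P-TEFb in an inactive store together with the HEXIM proteins. Its brighter probe set read 14659 and 14990, a difference of 0.032, and its dimmer probe set read 10568 and 10025, a difference of -0.076. The readings lie on either side of 0 and are 0.11 apart, 1.21 times the SD between probe sets, so no direction is given for Rn7sk. It was the only 1 of the 10 RNAs whose brightest probe set was not lower, and quantile normalization put it at a difference of 0.

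Terc is the template RNA of telomerase, which extends chromosome ends. It read 563 and 448, 79.6% of control, a difference of -0.32. Rnu12 is the U12 RNA, which pairs with the branch site of the rare class of minor introns. It read 732 and 503, 68.6% of control, a difference of -0.53 and the tenth lowest (rank 10) of the detected genes. Rnu3a encodes a U3 RNA, the small nucleolar RNA that guides early cuts in precursor ribosomal RNA. It read 332 and 254, 76.5% of control, a difference of -0.37.

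Vault RNA is a small component of the vault, a large barrel-shaped particle. Vaultrc5 read 154 and 99.9, 65.0% of control, a difference of -0.55, and its HMGN1 virus reading lay close to the detection floor of 85.9. The RefSeq table gives it a span of 345 bases and the class lncRNA, and the sources used here do not say whether the probes lie in the vault RNA itself. The 5S RNA is the small RNA of the large ribosomal subunit, and n-R5s136 is 1 of many near-identical copies that the probes could also catch. It read 3106 and 2027, 65.3% of control, a difference of -0.61, rank 7 of the detected genes from the lowest.

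The split by polymerase did not separate the RNAs. The 7 made by polymerase III ran from -0.79 to 0.032 with a median of -0.25, and 6 of them were lower. The 3 made by polymerase II ran from -0.53 to -0.32 with a median of -0.37, inside that range. Signal went with the size of the difference only in part. The 6 RNAs that read at most 5000 on the control array ran from -0.79 to -0.32, and the 4 that read above 5000, Rpph1, Rmrp, Rny3 and Rn7sk, ran from -0.25 to 0.032, so the ranges did not overlap at this limit, which was set after the values were seen. Across the 10 RNAs, which share both arrays, Pearson's r between mean log2 intensity and difference was 0.66 and Spearman's rho 0.66. For annotated length, 101 to 397 bases, the same values were 0.44 and 0.24. The part of signal level in the size of the differences was not tested. Among 28 detected protein-coding genes above 5000, 13 were lower, the median difference was 0.0024 and the lowest was -0.14. In the next lower band of control intensity, up to 5000, 256 of 756 were lower, with a median of 0.029. In the band below that, 3466 of 9247 were lower, with a median of 0.030. Other RNA classes, which include small nucleolar RNAs, had medians of -0.20 (n = 2), -0.39 (n = 10) and -0.30 (n = 31) in these bands, from the brightest down. A lower median below 5000 was thus not particular to the 10 RNAs. Intensities do not rank different RNAs by amount, since each probe set has its own response.

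**Figure D2:**
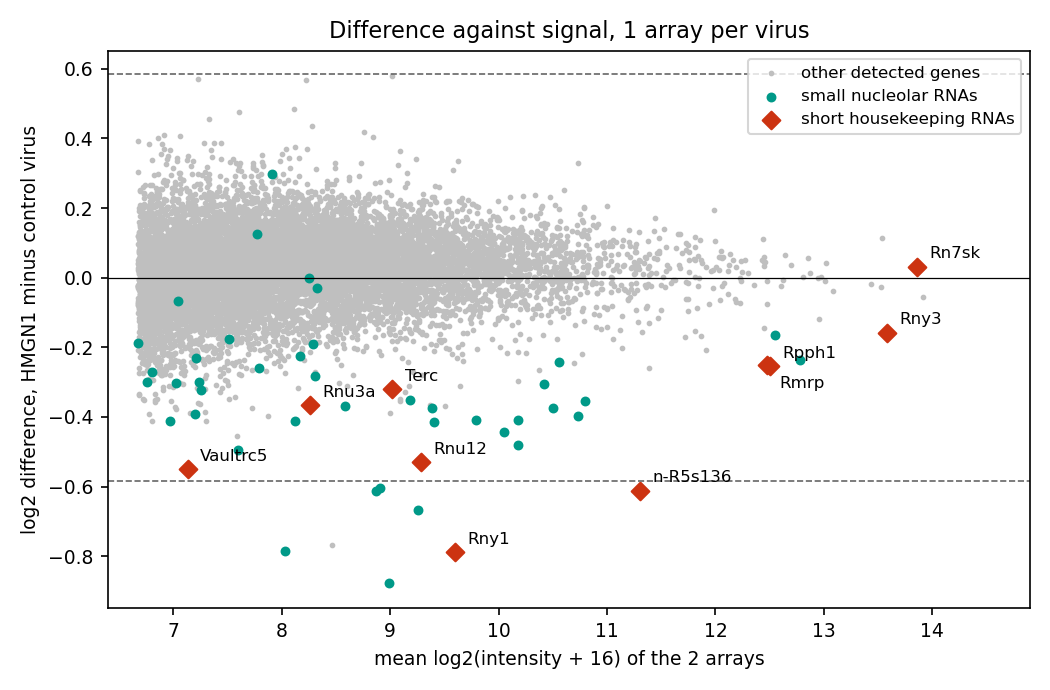
Log2 difference, HMGN1 virus minus control virus, against the mean log2(intensity + 16) of both arrays for 11325 detected genes (grey), with small nucleolar RNAs in green and the 10 short housekeeping RNAs as labelled diamonds. Dashed lines mark 1.5-fold. Rny1 and n-R5s136 lie below the lower line, and Rn7sk, at the right edge, lies at 0.032.

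Rnu3a has further copies, and other short RNAs have theirs, on probe sets that the annotation ties to several genes, which do not enter the gene table. Probe sets tied to several U3 copies gave 1 shared value, 1211 and 931, a difference of -0.37, like that of Rnu3a. They may catch the same RNA as the Rnu3a probe set, so they are no independent reading of it. Probe sets tied to U1 copies, the RNA that reads the 5′ splice site, gave 3 distinct values between -0.45 and -0.23. Those tied to both a U2 copy and Rdm1 gave 4 distinct values between -0.30 and -0.23. Probe sets tied to the 7SL RNA of the signal recognition particle read 15951 and 15342, a difference of -0.056. The similarly bright 7SK probe sets stood at 0.032 and -0.076, and Rny3 at -0.16.

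Some other classes of short noncoding RNA also read lower with the HMGN1 virus. Small nucleolar RNAs had a median difference of -0.32, with 38 of 41 detected genes lower. The 3 detected small Cajal body RNAs, guides for the modification of spliceosomal RNA, ran from -0.19 to -0.13, from Scarna8 at 110 and 94.3 to Scarna13 at 1196 and 1093. MicroRNA genes had a median of -0.043, with 51 of 81 detected genes lower, and microRNA probe sets may read longer precursors. Olfactory receptor genes, mostly dim and counted here without the floor, had a median of -0.050 with 632 of 1027 lower. Detected long noncoding RNA genes had a median of -0.016 with 115 of 207 lower. The microRNA median lay between these, but the olfactory receptor genes are a set of unlike signal. In the tenth of detected protein-coding genes with the shortest span, up to 4290 bases, 641 of 1088 were lower with a median of -0.026. The part of RNA length in the differences of the 10 RNAs was not tested.

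**Figure D3:**
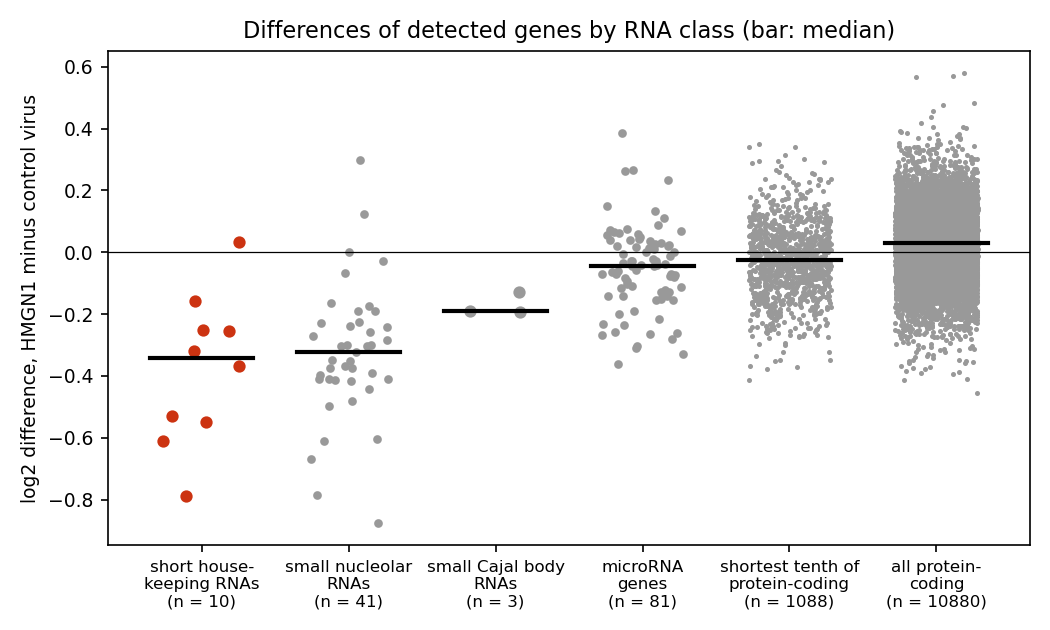
Log2 difference, HMGN1 virus minus control virus, of each detected gene (points) by RNA class, with the class median as a bar. The short housekeeping RNAs (median -0.34, n = 10) and the small nucleolar RNAs (median -0.32, n = 41) lie below the microRNA genes (median -0.043, n = 81) and all protein-coding genes (median 0.029, n = 10880).

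The genes of the proteins that bind these RNAs had a median difference close to that of all detected genes. Of 50 listed partner genes 46 had a probe set of their own and 41 were detected. Of these, 16 were lower, 24 were higher and 1 read the same, beside 38.4% lower and 60.1% higher among all detected genes. Their median was 0.028, beside 0.027 over all detected genes, and 0 reached a log2 difference of 0.32 in either direction. The median was 0.0011 with centring on all detected genes. Of the Y RNA binders, Ro60 was higher (532 and 613, 0.20). Ssb, which is La (688 and 702, 0.029), lay at about the median of all detected genes. Rny1 and Rny3 were lower.

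Among 10 detected protein genes of RNase P and MRP the median was 0.043, and 3 were lower. They ran from the scaffold subunit Pop1 (-0.053) and Pop7 (-0.017) to Rpp14 (0.14) and Rpp38 (470 and 525, 0.15). All 10 lay above Rpph1 and Rmrp, but only 1.26% of all detected genes stood at or below Rmrp. Lying above both RNAs therefore does not set these protein genes apart from other genes. Rpp40 was under the floor. The 7 genes of 7SK and P-TEFb had a median of -0.047, with the kinase Cdk9 (644 and 600, -0.099) and the inhibitor Hexim1 (-0.073) lowest and Larp7, which binds the end of 7SK (0.085), and Hexim2 (0.13) highest. A second probe set of Larp7 gave -0.16, so its direction is uncertain.

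Telomerase protein genes had a median of 0.069 over 6 detected, from Nop10 (-0.068) and Gar1 (-0.029) to the pseudouridine synthase Dkc1 (0.12) and the assembly factor Naf1 (0.14). The catalytic subunit Tert was under the floor at 69.3 and 68.2. The 6 detected protein genes of the U11/U12 particle ran from Rnpc3 (-0.052) and Snrnp48 (-0.050) to Zcrb1 (0.059) and Pdcd7 (0.065), while Rnu12 was at -0.53.

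The 8 protein genes of U3 ran from Fbl, the methyltransferase of box C/D particles (358 and 316, -0.17), and Snu13 (-0.14) to Imp4 (0.16) and Nop58 (0.18). The second probe set of Fbl gave 0.044, whereas the 4 of Snu13 lay between -0.17 and -0.12. Of the 5S binders, Rpl5, a ribosomal protein with near-identical copies, was at 0.058 and the assembly factor Rpf2 at -0.15, and Rrs1 was under the floor. Mvp, the main vault protein, was under the floor as well at 57.6 and 61.9.

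The genes of the polymerase III machinery lay on both sides of 0. Of 30 listed genes 27 were detected, with a median of 0.055, and 9 of them were lower, 17 higher and 1 the same. The lowest were Snapc2, a subunit of the factor that binds the upstream promoters (296 and 261, -0.17), and Crcp (-0.12). The highest were Gtf3c4 of TFIIIC (0.16) and the polymerase subunit Polr3c (253 and 286, 0.17). Maf1, the repressor of polymerase III, read 338 and 330 (-0.032), and Brf1, of the initiation factor TFIIIB, read 170 and 178 (0.060). Both were named after their values were seen.

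**Figure D4:**
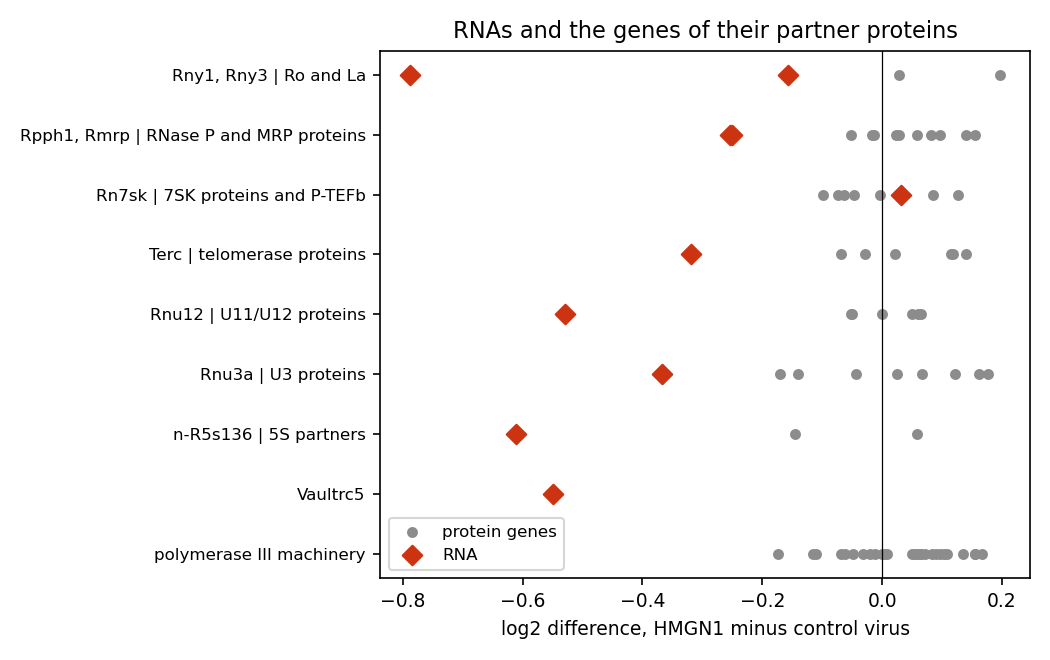
Log2 difference, HMGN1 virus minus control virus, of the RNAs (diamonds) and of the detected genes of their partner proteins (circles), 1 row per particle, with the polymerase III machinery in the bottom row. The protein genes lie between -0.17 and 0.20 in every row, and 9 of 10 diamonds lie at -0.16 or below.

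The protein-coding genes next to the RNAs in the RefSeq table gave a further comparison that the choice of the RNAs did not use. Of 18 distinct neighbours 15 had a probe set of their own and 11 were detected. Of these 11, 5 were lower and 6 higher, beside 38.4% lower and 60.1% higher among all detected genes. Their median was 0.0056, beside 0.027 over all detected genes, with a range from -0.12 to 0.18. Rnu12 lies between Poldip3 (840 and 897, 0.093) and Cyb5r3 (1247 and 1204, -0.050). Rnu3a at -0.37 lies beside Gtf3c6, itself a polymerase III factor gene (313 and 351, 0.15). Beside n-R5s136 at -0.61 lie Gas8 (0.18) and Rhou (0.018). Beside Vaultrc5 at -0.55 Zmat2 read 330 and 318 (-0.053), and both neighbours of Terc, Fcgr1 and BC107364, were under the floor. Beside Rn7sk lie Cilk1 (-0.0074) and Gsta4 (-0.12).

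As checks of the labels, Hmgn1 read 230 and 348, and the sources used here do not say whether the viral insert carries the probed part. All 8 listed neural precursor markers were detected, with control readings from 304 for Nes to 11137 for Fabp7. Their median difference was -0.016, and Sox1 stood lowest at 601 and 467 (-0.35). Of 5 astrocyte markers 4 were detected and 3 were higher with the HMGN1 virus, with a median of 0.24. Gfap, the astrocyte filament, read 406 and 615 (0.58), the highest difference of all detected genes, and the water channel Aqp4 read 187 and 237 (0.32). Slc1a3 stood at 0.15, whereas Aldoc was lower at 1574 and 1496 (-0.072). All 5 neuron markers were detected, with a median of -0.0062. They ran from Tubb3 (-0.17) and Rbfox3 (-0.15) to Dcx (0.087) and Stmn2 (0.22). Of 5 listed oligodendrocyte lineage markers 4 were detected, Olig2 (-0.16), Sox10 (0.055), Pdgfra (0.094) and Mbp (0.28), with a median of 0.075. Endothelial markers were under the floor in 5 of 5 cases and microglial markers in 4 of 5, whereas 4 of 5 mesenchymal markers were detected, at control readings of 129 to 167. Both arrays had similar medians, 101 and 98.8. The part of cell makeup in the differences of the 10 RNAs was not tested.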

How the data were processed

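The deposited table holds the authors' intensity values on a linear scale for 28944 probe sets on 2 one-colour arrays. Background correction, normalization and summarisation are not given in the sources used here, and no further normalization was applied. RNA was isolated with TRIzol, column-purified and labelled by a whole-transcript kit, per the labels' protocols. Names came from GEO's platform annotation: 21789 probe sets had 1 symbol, 1621 several and 5534 were unnamed here. Each gene took its brightest probe set. With 1 array per virus the groups could not be tested. RNA classes, spans and neighbours came from RefSeq GRCm38.p6, whose gene coordinates are not printed because the intensity table names no build. Promoter sequences and their coordinates came from the RefSeq promoter table of GRCm38.p6. The RNAs and lists were chosen with earlier results of these data known. Named were all 10 RNAs, the nearest protein-coding gene on each side where it was detected, and genes given as under the floor. Nearest genes that were not measured, and some under the floor, are not named. The 2 lowest and 2 highest detected genes of each partner list and of the machinery list were named too. Of the cell type markers only a part is named. Code (Python 3.11.15, pandas 2.3.3, statsmodels 0.14.6) was tested on simulated data. The number of arrays limits the precision.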

Additional observations from a re-analysis of the deposited data

How the results depend on the processing

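Offsets of 1 and 64, centring, quantile normalization, loess removal of the trend with intensity (span 0.3), averaging of probe sets, a floor at the 99th percentile and no floor left 9 or 10 of the RNAs lower, with a median of -0.38 to -0.30. Averaging of probe sets gave 10, because Rn7sk then stood at -0.022. The count of RNAs at least 1.5-fold lower, 2, became 5 at a log2 size of 0.32 and 0 at 2-fold by construction, and 3 with an offset of 1, where Vaultrc5 stood at -0.62. With an offset of 64 Vaultrc5 stood at -0.41, the only RNA whose move exceeded the SD between probe sets. The polymerase III RNAs ran from -0.28 to -0.24, the polymerase II RNAs from -0.41 to -0.32, the partner genes from 0.0011 to 0.029 and the polymerase III machinery from 0.024 to 0.062. For these medians except that of the polymerase II RNAs, averaging was added after seeing the data. No paired analysis was possible because there is only 1 array per virus, and for the same reason no array could be left out. Low signal limits Vaultrc5, whose HMGN1 virus reading of 99.9 lies near the floor of 85.9.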

Other observations

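A log2 difference of -0.322 or lower was reached by 59 detected genes. They held 24 of 10880 detected protein-coding genes, 21 of 41 small nucleolar RNAs and 5 of the 10 housekeeping RNAs. The 10 lowest genes held 4 of the housekeeping RNAs (Rny1, n-R5s136, Vaultrc5 and Rnu12), 5 small nucleolar RNAs and Snord73b. Snord73b is a further small nucleolar RNA that the RefSeq table files as snRNA (446 and 255, -0.77). The housekeeping RNAs were chosen with this contrast known, so their place among the lowest genes is a description only. Other spliceosomal and histone-processing U RNAs on probe sets of their own were all under the detection floor. These were Rnu6 (3.93 and 3.71, -0.017), Rnu5g (13.3 and 10.9, -0.125) and Rnu7 (49.9 and 31.6, -0.47). No direction is given for them at this signal. Of the olfactory receptor genes, also mostly dim, 37 of 1027 stood at -0.322 or lower.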
